A study of Homo sapiens with 6 samples.

Results

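The interleukin 6 (IL-6) and leukaemia inhibitory factor (LIF) family was examined in AsPC-1, a human cell line established from pancreatic cancer. The family was represented by 10 genes, chosen by name from the 58735 genes of the count table. They comprised the ligands LIF, IL6, IL11 and CLCF1, the receptors LIFR, IL6R, IL6ST and OSMR, the transcription factor STAT3 and the feedback inhibitor SOCS3. RNA was sequenced from 3 samples of AsPC-1 cells given an empty lentivirus (Vector, genotype WT in the labels) and from 3 samples given a lentivirus for MMP28 (OE-MMP28). MMP28 encodes a secreted matrix metalloproteinase. By the methods of the study, the MMP28 virus also carried GFP and puromycin resistance and the cells were selected as stable populations. The promoter that drives MMP28 and the number of separate infections behind each group were not given in the sources used here, so p-values measured the spread between these samples, which may be technical.

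Cytokines of this family bind a receptor chain of their own and then share gp130, the product of IL6ST, as the signalling chain. LIF acts through LIFR with gp130, IL-6 through IL6R with gp130, and oncostatin M through OSMR or LIFR with gp130. The receptors activate JAK kinases, which phosphorylate STAT3, and STAT3 in turn raises transcription of SOCS3, whose product inhibits the same receptors. Most of this control acts on proteins and their phosphorylation, which RNA sequencing does not measure. In pancreatic cancer the family is known for signals between tumour cells, fibroblasts and macrophages.

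Total counts ranged from 13633249 to 16691458 per library, and a gene with 0 counts could still have a level of up to 0.180 to 0.220 CPM (counts relative to the library total), which stands for 3 counts. Such limits cover counting error only. Mitochondrial genes took 11.9% to 14.8% of the counts in Vector and 8.80% to 11.9% in OE-MMP28. MMP28 stood at 5.17, 9.11 and 8.43 FPKM (fragments relative to gene length and library size) in Vector replicates 1 to 3. In OE-MMP28 it stood at 13.1, 13.9 and 15.1 FPKM, so the direction of the change matched the labels. The log2 fold change of MMP28 was 0.90 (edgeR, adjusted p = 0.00226), and 0.69 to 1.05 when single libraries were left out. This rise was smaller than that of LIF (log2 fold change 1.20, edgeR) and ranked 695 among the 15319 genes tested. The 6 ductal epithelial markers (EPCAM, KRT7, KRT8, KRT18, KRT19 and CDH1) were detected in all libraries, with summed levels of 2579 to 3520 FPKM in Vector and 3517 to 4305 FPKM in OE-MMP28. They did not move together, as KRT19 rose (log2 fold change 0.71, edgeR, adjusted p = 0.00175) and CDH1, the gene of E-cadherin, fell (log2 fold change -0.59, edgeR, adjusted p = 0.0113), while the other 4 did not pass the test. The 7 leukocyte and macrophage markers summed to 164 to 186 FPKM in Vector and 106 to 146 FPKM in OE-MMP28, nearly all of it LYZ, while PTPRC and CD163 had at most 1 count in any library. LYZ fell (log2 fold change -0.45, edgeR, adjusted p = 0.0376), and CD14 did not pass the test. The 10 markers of fibroblasts and endothelium summed to 35.9 to 42.4 FPKM in Vector and 40.1 to 57.9 FPKM in OE-MMP28, mostly LUM, and COL1A2 had at most 1 count. Under this sum, ACTA2 fell (log2 fold change -1.27, edgeR, adjusted p = 0.00318) and PECAM1 rose (log2 fold change 2.79, edgeR, adjusted p = 0.00361). PECAM1 had at most 30 counts, and LUM and VWF did not pass the test. The part of these shifts in the results was not tested.

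LIF was the 1 gene of the 8 tested that passed the test, and it was higher in OE-MMP28. Its mean level was 17.3 ± 1.43 FPKM (SD, n = 3) in Vector and 39.4 ± 4.37 FPKM (SD, n = 3) in OE-MMP28. In bulk RNA a change in the number of expressing cells and a change in RNA per cell cannot be told apart. Of the 10 genes, 8 passed the filter on low counts and were tested with edgeR's quasi-likelihood test, and IL6 and IL11 did not pass. At an adjusted p under 0.05, 1 of the 8 was higher in OE-MMP28, where 11.7% of all 15319 genes tested were higher, and 0 of the 8 were lower, where 11.6% of all genes tested were lower. At an unadjusted p under 0.05 the count was 2 of 8, namely LIF and SOCS3. Over all genes tested that share was at least the 23.4% called after adjustment, so 2 of 8 did not stand out. DESeq2 and limma voom each gave 1 higher and 0 lower by the same rule. With the added condition of an absolute log2 fold change over 1, LIF was again called, and 0 genes of the family were lower, against 3.06% of all genes tested that rose and 4.32% that fell by that much. The median log2 fold change of the 8 genes was -0.044, against 0.014 over all genes tested. With 1 of 8 called in a comparison in which 23.4% of all genes were called in either direction, the family as a whole did not stand out by its count.

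**Figure D1:**
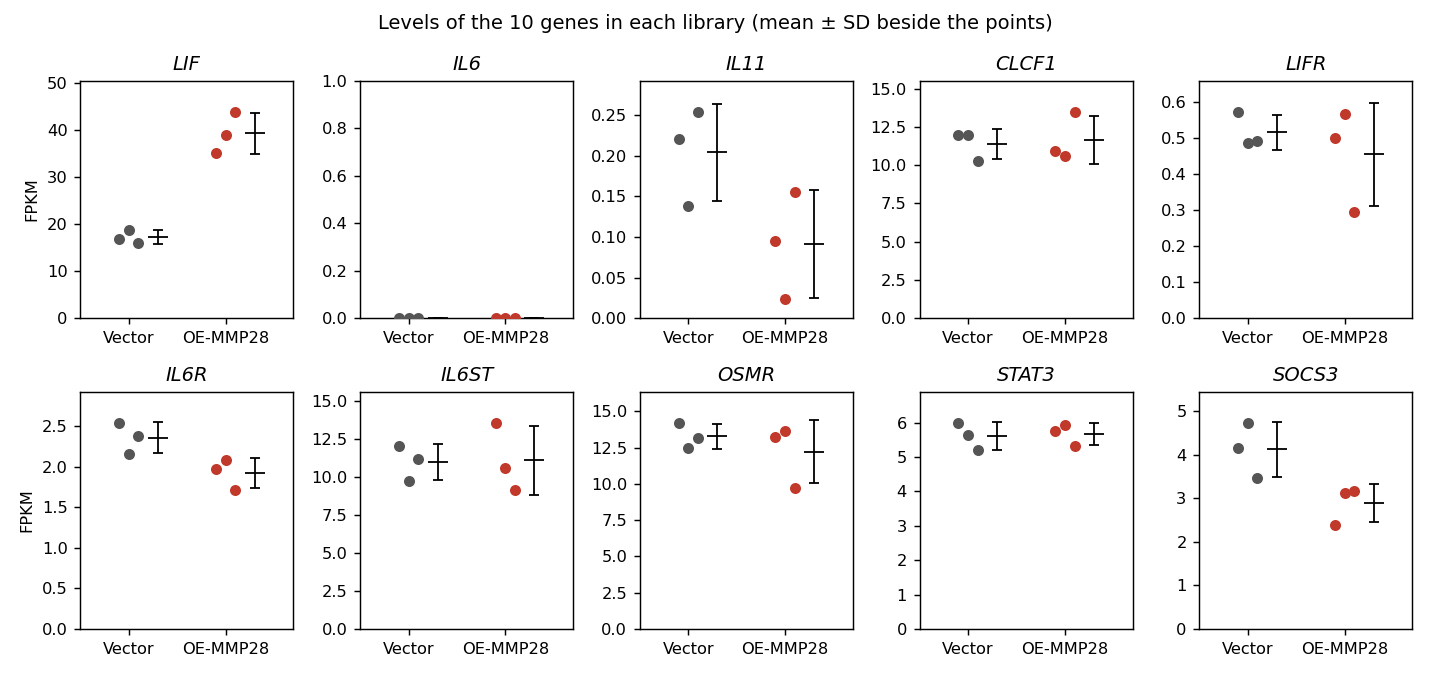
Levels of the 10 genes in FPKM (vertical axes, each panel with its own scale starting at 0) in the 3 Vector and the 3 OE-MMP28 libraries. Points are libraries and the bars beside them are the mean ± SD; the LIF points of OE-MMP28 (35.2 to 43.9) all lie above those of Vector (16.1 to 18.9), and IL6 is at 0 in all 6 libraries.

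Starting with the ligands, LIF (ENSG00000128342) lies on the minus strand at chr22:30240447-30246851 of GRCh38 and encodes a secreted cytokine named for its effect on leukaemia cells. It was counted 1023, 1012 and 941 times in Vector replicates 1 to 3 and 2209, 2459 and 2932 times in OE-MMP28 replicates 1 to 3. On the per-length scale these counts stood for 16.9, 18.9 and 16.1 FPKM in Vector and 35.2, 39.1 and 43.9 FPKM in OE-MMP28. Every OE-MMP28 library was therefore above every Vector library, and the lowest value of the one group was 35.2 against a highest value of 18.9 in the other.

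LIF rose by a log2 fold change of 1.20 (SE 0.15, 95% interval 0.88 to 1.52), which is a 2.30-fold difference with an interval of 1.85 to 2.87 (edgeR, adjusted p = 1.37e-05). An exact two-sided permutation test of its FPKM values returned p = 0.1, below which a design of 3 against 3 libraries cannot go. Of the 15319 genes tested, 348 had a larger positive log2 fold change than LIF and 140 a smaller adjusted p. Among protein-coding genes at 1 FPKM or more on average, the LIF level exceeded that of 77.9% in Vector and of 90.9% in OE-MMP28. The 71 genes tested within 5 Mb of LIF had a median log2 fold change of 0.053.

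Antisense transcripts overlap LIF in the annotation. AC004264.1, on the opposite strand, covers 175 bases or 4.41% of the exon length of LIF, and was itself counted 17, 25 and 12 times in Vector and 34, 53 and 77 times in OE-MMP28. Its log2 fold change was 1.44 (edgeR, adjusted p = 0.00953), and without OE-MMP28 replicate 3 it was 1.14 with an adjusted p of 0.0796. Whether the counting used the strand was not stated and the library kit does not mark it, so reads from LIF and from its antisense partner in the shared bases cannot be told apart. The count of AC004264.1 never exceeded 77, against at least 941 for LIF. The other antisense gene, LIF-AS1, had at most 3 counts.

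IL6 (ENSG00000136244, chr7:22725884-22732002, plus strand), which encodes the inflammatory cytokine that gave the family its name, had 0 counts in all 6 libraries. A count of 0 allows up to 0.220 CPM in the smallest library, or 0.106 FPKM at the length of IL6. No difference was thus detectable at this depth. IL11 (ENSG00000095752, chr19:55364389-55370463, minus strand), a cytokine that acts on stromal and blood-forming cells, was close to that limit. Its counts were 9, 5 and 10 in Vector and 4, 1 and 7 in OE-MMP28, or 0.220, 0.139 and 0.254 FPKM against 0.0947, 0.0236 and 0.156 FPKM. The groups overlapped for IL11, and an exact two-sided permutation test of the FPKM values gave p = 0.2.

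CLCF1 (ENSG00000175505, chr11:67364168-67374177, minus strand) encodes cardiotrophin-like cytokine factor 1, a ligand of the CNTF receptor that is secreted together with a partner protein. It was counted 362, 319 and 299 times in Vector and 341, 332 and 448 times in OE-MMP28. Its levels were 12.0, 12.0 and 10.3 FPKM in Vector and 10.9, 10.6 and 13.5 FPKM in OE-MMP28, and the groups overlapped. The log2 fold change of CLCF1 was 0.046 with a 95% interval of -0.31 to 0.41 (edgeR, adjusted p = 0.881), an interval that does not reach the rise of LIF. The genes within 5 Mb of CLCF1 had a median log2 fold change of 0.28. The share of LIF in the summed FPKM of the 4 ligands went from 58.0%, 60.9% and 60.4% in Vector to 76.2%, 78.6% and 76.3% in OE-MMP28.

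The sequences upstream of IL11 and LIFR are shown because these are the least abundant of the genes that were detected and because their windows hold a match, before the start site, to a motif bound by STAT factors or by AP-1, another factor induced by cytokines. RefSeq start sites on GRCh38.p14 gave a 300-base window, 250 bases before and 50 from the start, for 8 of the 10 genes, all but LIF and CLCF1. The motifs were the STAT motif TTCNNNGAA and the AP-1 motif TGANTCA, searched on both strands. The printed stretches are the 250 bases before the start, read 5′ to 3′ on the strand of the gene, with motif matches in capitals. They lie at chr19:55370464-55370713 (minus strand) for IL11 and chr5:38595406-38595655 (minus strand) for LIFR.
IL11: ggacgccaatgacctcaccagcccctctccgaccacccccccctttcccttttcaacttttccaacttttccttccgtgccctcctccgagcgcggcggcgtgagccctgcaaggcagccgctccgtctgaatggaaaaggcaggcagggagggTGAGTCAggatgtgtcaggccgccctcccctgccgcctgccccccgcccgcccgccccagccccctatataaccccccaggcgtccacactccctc
LIFR: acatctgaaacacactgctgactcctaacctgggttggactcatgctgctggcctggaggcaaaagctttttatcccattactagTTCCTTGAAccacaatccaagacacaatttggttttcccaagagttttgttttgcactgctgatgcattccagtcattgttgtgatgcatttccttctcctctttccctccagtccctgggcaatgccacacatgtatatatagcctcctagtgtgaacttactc
The capitals mark the AP-1 motif in IL11, which begins at position -96 from the start site, and the STAT motif in LIFR at position -165. The RefSeq start sites of LIFR, IL6 and SOCS3 lie 12949, 1316 and 848 bases from the gene starts of the annotation used for counting, so these windows may not hold the start in use here. The AP-1 motif was also found in the windows of IL6R and OSMR, after the start site. No match to either motif was found in the windows of IL6, IL6ST, STAT3 and SOCS3. Of all 35116 RefSeq promoter windows of this length, 7.66% held the STAT motif and 7.71% the AP-1 motif, and the matches are descriptions of the letters only.

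Turning to the receptors, none of the 4 passed the test. LIFR (ENSG00000113594, chr5:38474963-38608354, minus strand), the receptor chain that binds LIF, was the lowest of them on the per-length scale. It was counted 104, 78 and 86 times in Vector and 94, 107 and 59 times in OE-MMP28. These counts stood for 0.573, 0.486 and 0.492 FPKM in Vector and 0.501, 0.569 and 0.296 FPKM in OE-MMP28. The groups overlapped, with OE-MMP28 replicate 3 the lowest of the 6 libraries. Vector replicate 1 was the highest in FPKM (0.573 against 0.569 in OE-MMP28 replicate 2), and OE-MMP28 replicate 2 in counts. LIFR had a log2 fold change of -0.18 (95% interval -0.72 to 0.36, edgeR, adjusted p = 0.665), and it was 0.056 without OE-MMP28 replicate 3. The antisense gene LIFR-AS1 covers 5.30% of the exon length of LIFR and had at most 6 counts.

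IL6ST (ENSG00000134352, chr5:55935095-55994993, minus strand), which encodes the shared chain gp130, exceeded LIFR per length by a ratio of 21.3 ± 1.41 (SD, n = 3) in Vector and 25.6 ± 6.27 (SD, n = 3) in OE-MMP28. Its levels were 12.1, 9.71 and 11.2 FPKM in Vector and 13.6, 10.6 and 9.13 FPKM in OE-MMP28. The highest and the lowest value both belonged to OE-MMP28, so the groups overlapped. With a log2 fold change of 0.024 (95% interval -0.31 to 0.36, edgeR, adjusted p = 0.937) IL6ST did not pass the test. Processed pseudogenes of IL6ST and IL6R, IL6STP1 and IL6RP1, had 0 counts in all libraries. Another processed pseudogene, AC016596.1, lies within IL6ST on the opposite strand and had 48 to 91 counts, but shares 0 exon bases with it. The antisense gene AC008914.1 covers 8.58% of the exon length of IL6ST and had 0 counts.

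IL6R (ENSG00000160712, chr1:154405193-154469450, plus strand), the chain that binds IL-6, stood at 2.54, 2.16 and 2.38 FPKM in Vector and at 1.97, 2.08 and 1.71 FPKM in OE-MMP28. All 3 OE-MMP28 libraries were below all 3 Vector libraries, as held for 18.6% of all genes tested. The log2 fold change of IL6R was -0.29 (95% interval -0.67 to 0.097), which did not pass the test (edgeR, adjusted p = 0.278). Its counts were 251, 188 and 226 in Vector and 201, 213 and 186 in OE-MMP28.

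OSMR (ENSG00000145623, chr5:38845858-38945596, plus strand), the oncostatin M receptor chain, was the most abundant of the 4 receptors by mean FPKM in both groups. It stood at 14.2, 12.5 and 13.1 FPKM in Vector and at 13.2, 13.7 and 9.71 FPKM in OE-MMP28. The groups overlapped, and OE-MMP28 replicate 3 was again the lowest library. OSMR had a log2 fold change of -0.11 (95% interval -0.44 to 0.22, edgeR, adjusted p = 0.649), and it was 0.026 without that library. RICTOR, on the opposite strand, covers 229 bases or 3.19% of the exon length of OSMR and fell by 0.92 on the log2 scale (edgeR, adjusted p = 0.000633). The part of RICTOR reads in the OSMR count was not tested.

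**Figure D2:**
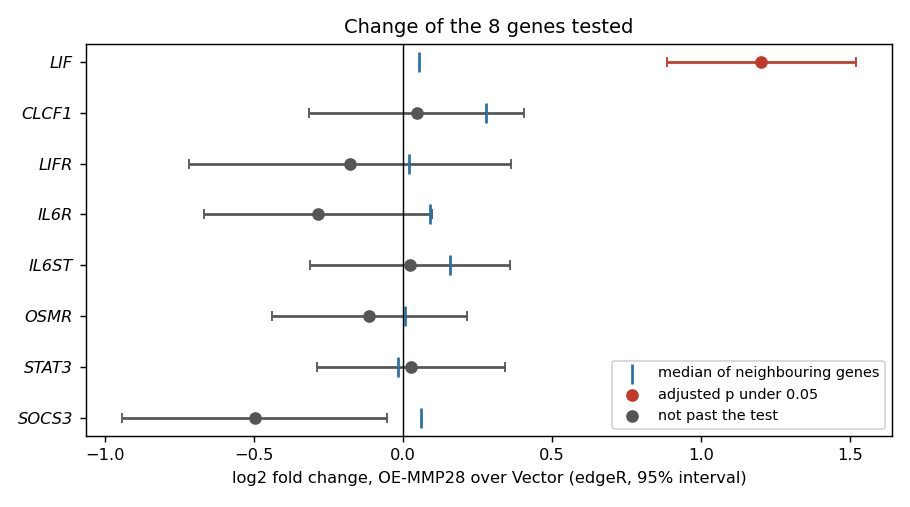
Log2 fold change of OE-MMP28 over Vector (horizontal axis) for the 8 genes tested, with 95% intervals from edgeR; red marks an adjusted p under 0.05 and the blue ticks are the median log2 fold change of the genes within 5 Mb. LIF lies at 1.20, and the other 7 genes lie between -0.50 and 0.046.

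Downstream of the receptors, STAT3 (ENSG00000168610, chr17:42313324-42388568, minus strand) had means of 5.61 ± 0.396 FPKM (SD, n = 3) in Vector and 5.67 ± 0.325 FPKM (SD, n = 3) in OE-MMP28. It was counted 808, 670 and 676 times in Vector and 802, 830 and 787 times in OE-MMP28, which stood for 6.00, 5.63 and 5.21 FPKM against 5.75, 5.94 and 5.31 FPKM. The groups overlapped over nearly their whole ranges. The log2 fold change of STAT3 was 0.026 (95% interval -0.29 to 0.34, edgeR, adjusted p = 0.926), which leaves room for a fold of 0.818 to 1.27. Phosphorylation of STAT3 was not measured in these libraries.

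SOCS3 (ENSG00000184557, chr17:78356778-78360077, minus strand), the feedback inhibitor, was counted 174, 175 and 140 times in Vector and 103, 135 and 146 times in OE-MMP28. Per length this was 4.16, 4.74 and 3.47 FPKM in Vector and 2.38, 3.11 and 3.17 FPKM in OE-MMP28. All OE-MMP28 values were below all Vector values, so SOCS3 and IL6R were the 2 of 8 genes tested whose groups did not overlap in this direction. The log2 fold change of SOCS3 was -0.50 (SE 0.21, 95% interval -0.94 to -0.054, edgeR, unadjusted p = 0.0297, adjusted p = 0.0968), so it did not pass the test. LIF was the 1 gene of 8 whose groups did not overlap in the other direction, as held for 19.5% of all genes tested. Taking both directions, 3 of the 8 genes did not overlap, against 38.1% of all genes tested.

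Within each group the order of the levels per length was the same. LIF was highest, followed by OSMR, CLCF1, IL6ST, STAT3, SOCS3, IL6R, LIFR and IL11, with IL6 at 0. In Vector, LIF exceeded OSMR 1.30-fold by mean FPKM, and in OE-MMP28 it exceeded OSMR 3.23-fold. The ranges of CLCF1 and IL6ST overlapped in both groups, and those of OSMR and CLCF1 overlapped in OE-MMP28, so these neighbours did not differ beyond their spread. The step from IL6R to LIFR was 4.56-fold in Vector and 4.22-fold in OE-MMP28. The coefficient of variation of the 8 genes tested ranged from 6.51% to 15.3% in Vector and from 5.74% to 31.3% in OE-MMP28, with the highest value belonging to LIFR.

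Ratios within a library show the ligand against its receptors without reference to the scaling between libraries. The ratio of LIF to LIFR in FPKM was 29.4, 38.8 and 32.7 in Vector and 70.2, 68.7 and 149 in OE-MMP28, the last of these being the library with 59 LIFR counts. LIF over IL6ST was 1.40, 1.94 and 1.44 in Vector and 2.59, 3.68 and 4.81 in OE-MMP28. LIF over STAT3 was 2.81, 3.35 and 3.09 in Vector and 6.12, 6.58 and 8.27 in OE-MMP28. In these 3 ratios every OE-MMP28 library was above every Vector library. All 3 have LIF on top of a gene that did not pass the test, so they restate the rise of LIF.

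The ratio of SOCS3 to STAT3, a feedback gene set against its activator, was 0.694, 0.842 and 0.668 in Vector and 0.414, 0.524 and 0.598 in OE-MMP28, again without overlap. IL6ST over IL6R was 4.65 ± 0.128 (SD, n = 3) in Vector and 5.78 ± 0.979 (SD, n = 3) in OE-MMP28. OSMR over LIFR was 25.7 ± 0.970 (SD, n = 3) in Vector and 27.8 ± 4.56 (SD, n = 3) in OE-MMP28, and these groups overlapped. In all, 8 ratios were compared by two-sided exact permutation tests, of which 6 gave p = 0.1, the smallest that 3 against 3 libraries allow, or 0.133 after Benjamini-Hochberg adjustment. The ratios were chosen with the values of the single genes known, and those with LIF on top are not independent of each other.

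**Figure D3:**
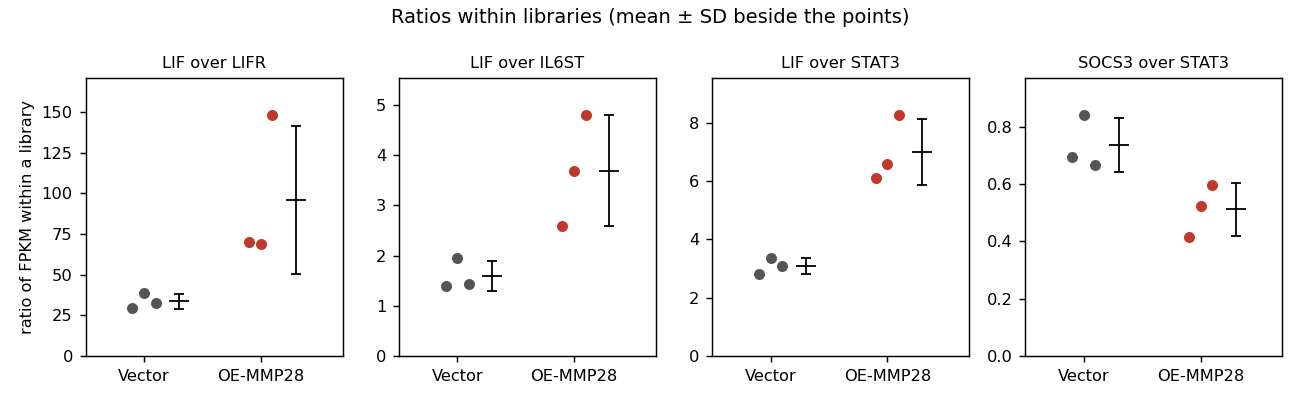
Ratio of FPKM values within a library (vertical axes, starting at 0) for LIF over LIFR, LIF over IL6ST, LIF over STAT3 and SOCS3 over STAT3. Points are libraries and bars are the mean ± SD; the LIF ratios of OE-MMP28 lie above those of Vector, and the SOCS3 ratios (0.414 to 0.598) lie below those of Vector (0.668 to 0.842).

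The rest of the pathway was followed in 83 further genes, of which 61 were tested. At an adjusted p under 0.05, 9 rose and 5 fell in OE-MMP28, which is 14.8% and 8.20% of those tested, against the 11.7% and 11.6% over all genes. The same shares over all genes apply to each list below. At an unadjusted p under 0.05 the shares over all genes were at least as high. They were not counted exactly, so no unadjusted count below is read as an excess. The median log2 fold change of the 61 genes was 0.057. Among 7 other ligands and soluble partners of the family, CTF1, which encodes cardiotrophin 1, a ligand of LIFR, was the 1 of 2 tested that rose. CTF1 was counted 50, 52 and 55 times in Vector and 69, 103 and 151 times in OE-MMP28, a log2 fold change of 0.89 (edgeR, adjusted p = 0.0255). That call was lost without Vector replicate 3, without OE-MMP28 replicate 2 and without OE-MMP28 replicate 3, with adjusted p of up to 0.179. It was also lost with limma on log2(FPKM + 1) and log2(FPKM + 0.1), at adjusted p of 0.0831 and 0.0763, and once the median of the genes within 5 Mb (0.29) was taken off, with a log2 fold change of 0.60 and an adjusted p of 0.157. IL27 and IL31 had 0 counts in all libraries, and OSM, the oncostatin M gene, had at most 1 count in any library.

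Of 4 other receptors of the family, 3 were tested and 0 passed in edgeR, DESeq2 or limma voom, while 1 was higher and 1 lower at an unadjusted p under 0.05 in edgeR. CNTFR, the CNTF receptor chain, is outside the rule for named genes and is given because its level was the highest of the receptors, at 19.2 ± 1.78 FPKM (SD, n = 3) in Vector and 25.1 ± 4.89 FPKM (SD, n = 3) in OE-MMP28. Its log2 fold change was 0.41 (edgeR, adjusted p = 0.0957), and its groups overlapped.

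Of 9 JAK kinases and other STATs tested, 0 rose and 2 fell in edgeR, DESeq2 and limma voom alike, against 11.7% and 11.6% of all genes tested in edgeR. At an unadjusted p under 0.05 in edgeR 0 were higher and 4 lower, where at least 11.7% and 11.6% of all genes tested were. STAT5A, a transcription factor of cytokine and growth hormone signalling, stood at 1.58 ± 0.193 FPKM (SD, n = 3) in Vector and 0.914 ± 0.0485 FPKM (SD, n = 3) in OE-MMP28, and its log2 fold change was -0.77 (edgeR, adjusted p = 0.0150). STAT2, a factor of the interferon response, stood at 8.79 ± 0.885 and 5.92 ± 0.0731 FPKM (SD, n = 3 each), with a log2 fold change of -0.56 (edgeR, adjusted p = 0.0127). The STAT2 call was lost without OE-MMP28 replicate 2, at an adjusted p of 0.0661. Groups did not overlap for either gene.

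Of 12 inhibitors and phosphatases tested, SOCS4 rose (log2 fold change 0.56, edgeR, adjusted p = 0.0305). In this list 0 fell in edgeR and limma voom, 1 fell in DESeq2, and 1 was lower at an unadjusted p under 0.05 in edgeR. The SOCS4 rise was lost when either Vector replicate 2 or 3 or OE-MMP28 replicate 1 or 2 was left out, and with limma on log2(FPKM + 1) and log2(FPKM + 0.1), at adjusted p of 0.112 and 0.114. Of 8 adaptors that link gp130 to the ERK, PI3K and YAP pathways, 2 fell and 0 rose in edgeR, DESeq2 and limma voom, against 11.6% and 11.7% of all genes tested in edgeR. At an unadjusted p under 0.05 in edgeR 1 was higher and 2 were lower. GAB2, a docking protein, went from 4.55 ± 0.503 to 2.53 ± 0.181 FPKM (SD, n = 3 each), for a log2 fold change of -0.84 (edgeR, adjusted p = 0.00142). SOS1, an activator of RAS, went from 9.89 ± 0.631 to 5.97 ± 1.04 FPKM (SD, n = 3 each), for a log2 fold change of -0.72 (edgeR, adjusted p = 0.00268). Of 4 genes for shedding of receptors from the cell surface, 0 passed in edgeR, DESeq2 or limma voom, and the median log2 fold change was -0.39. At an unadjusted p under 0.05 in edgeR 2 of these 4 were lower, where at least 11.6% of all genes tested were.

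Genes known as STAT3 targets in other cells were the largest list, with 36 genes of which 23 were tested. Of these 7 rose, 1 fell and 15 did not pass the test, or 30.4% higher and 4.35% lower, against 11.7% and 11.6% of all genes tested, with a median log2 fold change of 0.12. In this list DESeq2 called 7 higher and 2 lower, limma voom 7 and 1, and at an unadjusted p under 0.05 in edgeR 8 were higher and 2 lower. Of the 7 that rose, CCND1 lost its call in 7 of the 19 alternatives, at adjusted p of up to 0.433, and MCL1 in 3, at up to 0.0543, both without Vector replicate 2, Vector replicate 3 or OE-MMP28 replicate 2. CCND1 was also lost without OE-MMP28 replicate 1, with both limma fits on FPKM and with the local median taken off. TIMP1 (log2 fold change 0.62, edgeR, adjusted p = 0.00660) and BCL2L1 lost their calls in 0 of the 19 alternatives. SERPINA1 lost its call in 0 of the 17 that tested it, HIF1A in 1 and FOS in 2. These targets also respond to other factors, and the list was drawn up with earlier results of these data known, so its counts are no independent evidence of a direction. The acute phase genes SERPINA3, HP, FGA, FGB, FGG and CRP had 0 counts in all libraries.

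SERPINA1, the gene of the protease inhibitor alpha-1-antitrypsin, was counted 5, 12 and 9 times in Vector and 59, 68 and 73 times in OE-MMP28. The groups were far apart, with a log2 fold change of 2.77 (edgeR, adjusted p = 2.94e-05), although the level stayed under 1 FPKM. FOS, an AP-1 subunit, rose by a log2 fold change of 0.85 (edgeR, adjusted p = 0.00450). BCL2L1, an inhibitor of apoptosis, went from 35.5 ± 1.92 to 55.4 ± 5.85 FPKM (SD, n = 3 each), for a log2 fold change of 0.66 (edgeR, adjusted p = 0.00318). HIF1A, the hypoxia-inducible factor, rose by a log2 fold change of 0.62 (edgeR, adjusted p = 0.00683). The 1 gene that fell was VEGFA, a growth factor for blood vessels, with a log2 fold change of -0.64 (edgeR, adjusted p = 0.00532). The study itself reported the other direction by quantitative PCR, with VEGFA expression higher in MMP28-overexpressing cells of both its cancer cell lines. For the protein, it reported more VEGFA secretion with MMP28 overexpression by ELISA, and less with MMP28 knockdown on a cytokine array. RNA counts do not measure secretion. The reason for the difference between the RNA counts here and the study's measurements was not tested.

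SERPINA1, FOS, HIF1A and SOCS4 all lie on chromosome 14, and the genes within 5 Mb of each had median log2 fold changes of 0.55, 0.62, 0.45 and 0.57. Once the local median was taken off, FOS stood at 0.22 (edgeR, adjusted p = 0.493), HIF1A at 0.17 (edgeR, adjusted p = 0.503) and SOCS4 at -0.015 (edgeR, adjusted p = 0.966), while SERPINA1 kept its call. LIF, BCL2L1, GAB2, STAT5A, STAT2 and VEGFA kept their calls in the same fit. SOS1 and CTF1 did not, at adjusted p of 0.0755 and 0.157 (edgeR).

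**Figure D4:**
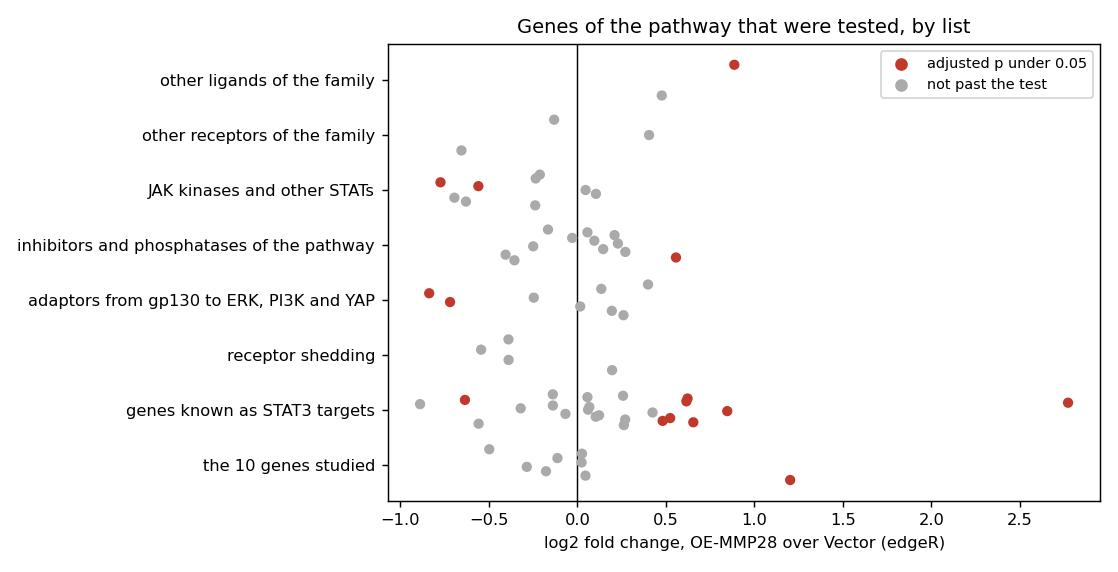
Log2 fold change of OE-MMP28 over Vector (horizontal axis) of each tested gene in the 7 pathway lists and among the 10 genes studied, 1 point per gene, spread vertically for legibility. Red points have an adjusted p under 0.05 (edgeR); 9 of the 61 list genes are red to the right of 0 and 5 to the left, and LIF is the red point in the bottom row.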

How the data were processed

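RNA of 6 AsPC-1 samples was sequenced with a library kit that does not mark strand. The authors deposited whole-number read counts per gene, neither normalized nor pooled, and FPKM values whose scale matched the summed counts within 2.02%. Per the submitters' processing notes, HISAT2 2.0.5 and featureCounts 1.5.0-p3 were used, and their settings are not given in the sources used here. All 58735 genes had the coordinates of GENCODE release 29 on GRCh38. The authors' deposited normalized group values (a signal), log2 fold changes and p-values of their own comparison were not used. The number of rows without a gene and of unmapped per-sample columns was 0 each.

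Counts were tested with edgeR 4.0.16 in R 4.3.3 (quasi-likelihood, two-sided, group alone, TMM scaling, filterByExpr at 10 counts per gene and 15 in total), with Benjamini-Hochberg adjustment over all 15319 genes tested. Mean and SD were taken on FPKM. Replicates were not duplicates, since their counts differed by a chi-square of 13.9 to 28.0 per degree of freedom. On simulated counts edgeR recovered 69.4% of 98 genes changed by a log2 of 1 and 90.3% of 93 changed by 1.5, among 15059 tested, and 7.88% of its calls were false. The 19 alternatives were leaving out each library, a replicate block, other filters and scalings, DESeq2 1.42.0, limma 3.58.1 (voom, and log2(FPKM + pseudocount) with pseudocounts of 1 and 0.1), genes without mitochondrial ones, protein-coding genes alone, and an offset for the median log2 fold change within 5 Mb (at least 10 genes).

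The 10 genes and the lists were chosen with earlier results of these data known. All 10 genes and MMP28 were named, with some of the genes overlapping them and cell type markers. From each list, at most the 4 largest rises and 4 largest falls at an adjusted p under 0.05 were named, with genes at 0 counts throughout. OSM, CNTFR, CCND1, MCL1 and TIMP1 were named after their values were seen.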

Additional observations from a re-analysis of the deposited data

How the results depend on the processing

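Under all 19 alternatives 1 of the genes was called higher, 0 lower and 1 with an absolute log2 fold change over 1. LIF kept its call throughout, with a log2 fold change of 1.11 to 1.27 and an adjusted p of 1.83e-12 to 0.00378, and SOCS3 stayed above the threshold at an adjusted p of 0.0738 to 0.264. Of 512 values recomputed under the alternatives 16 changed sign, and SOCS4 was the only one of these genes that had been called. Without single libraries the log2 fold change ranged from -0.076 to 0.096 for CLCF1, -0.39 to 0.056 for LIFR, -0.15 to 0.14 for IL6ST, -0.22 to 0.026 for OSMR and -0.024 to 0.077 for STAT3, each crossing 0. With upper-quartile scaling it was -0.024 for IL6ST and -0.022 for STAT3, without mitochondrial genes -0.0056 and -0.0034, and with at least 1 CPM in 3 libraries -0.0016 for IL6ST. With the local-median offset it was -0.23 for CLCF1, -0.13 for IL6ST and -0.015 for SOCS4.

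Of the 61 pathway genes tested, 9 were higher and 5 lower. The higher count was 4 and 5 with limma on log2(FPKM + 1) and log2(FPKM + 0.1) and 4 with the local-median offset, and ranged from 5 to 10 without single libraries, 5 being reached without Vector replicate 3 and without OE-MMP28 replicate 2. The lower count was 8 with no filter on low counts and ranged from 4 to 10 without single libraries, 10 being reached without Vector replicate 1. STAT5A, CTF1, SOCS4 and CCND1 lost their calls with both limma fits on FPKM, and FOS lost it with log2(FPKM + 1). For STAT5A the adjusted p was up to 0.0686. The cause was not tested. Over all genes, 1795 were called higher and 1784 lower, against 985 and 1044 without OE-MMP28 replicate 2, 1136 and 1231 without Vector replicate 3, 1137 and 1229 with the local-median offset, 1009 and 965 with limma on log2(FPKM + 1), and 1000 and 970 with log2(FPKM + 0.1).

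The replicate numbers did not pair the samples, since deviations of same-numbered libraries from their group means correlated at 0.018, 0.0076 and -0.12 over 14106 genes, and no library correlated best with its own number. The highest correlations were 0.098 for Vector 1 with OE-MMP28 2, 0.19 for Vector 2 with OE-MMP28 3 and 0.21 for Vector 3 with OE-MMP28 1. A pairing across the numbers was not tested. With the replicate block LIF had a log2 fold change of 1.20 and an adjusted p of 1.65e-08 (edgeR), 9 pathway genes were higher and 7 lower, and 1844 genes were called higher and 1841 lower overall.

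With 3 libraries a group, an exact permutation test cannot go below p = 0.1, and IL6 and IL11 were too low to test.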

Other observations

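All 4 receptor genes had their lowest value of the 6 libraries in OE-MMP28 replicate 3, the library with the highest LIF level (43.9 FPKM). LIFR stood there at 0.296 FPKM, IL6ST at 9.13, OSMR at 9.71 and IL6R at 1.71. This was seen after the values were known and was not tested.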
